A study of Mus musculus with 8 samples.

Results

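Transcripts of 10 genes that mark meningeal fibroblasts and mural cells were followed in whole brains of mice with a mutant Cstf2 and of wild-type mice of the same colony. The genes are the fibrillar collagens Col1a1, Col1a2 and Col3a1, the proteoglycans Dcn and Lum, the growth factor Igf2, the barrier transporters Slc6a13 and Slc13a4, and the contractile genes Acta2 and Tagln. They were chosen by exact symbol and are 10 of the 25815 genes in the deposited count table. The mutant group, called D50A, held 5 libraries and the wild-type group, called WT, held 3, each from the brain of 1 untreated mouse killed at postnatal day 50. D50A mice carry a Cstf2 allele that puts alanine in place of aspartate, named by the labels as Cstf2D50A. Both genotypes share the C57BL/6NCrl background, to which the line was backcrossed for 4 generations before it was bred within its own colony. The protocol in the labels speaks of wild-type littermates but not of which mice shared a litter; the labels name no sex or batch, and they do not say how much of the meninges stayed on the tissue. Libraries are numbered as they were deposited and the numbers pair nothing, so the p-values below measure only the spread between these single-animal libraries.

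Fibroblasts of the pia, arachnoid and dura, and those around larger vessels, lay down the collagen and proteoglycan matrix of the brain's coverings. Mural cells, the pericytes and vascular smooth muscle cells, wrap the vessel wall, and the smooth muscle cells express a contractile programme that includes smooth muscle actin and transgelin. Fibroblasts and mural cells make up a small share of a whole brain, so their transcripts are diluted by RNA of neurons and glia. CSTF2 is the RNA-binding subunit of the cleavage stimulation factor. It contacts the U- or GU-rich element downstream of a cleavage site, while the AAUAAA hexamer upstream of the site is bound by another complex.

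Because CSTF2 acts at the 3′ end of messages, the last 30 bases of the principal transcript are shown for 6 of the genes on which the results turn. They were read from GENCODE M21 transcripts on GRCm38 (mm10), are written 5′ to 3′ in the sense of the transcript with T for U, and carry in capitals the hexamer AATAAA or its common variant ATTAAA where one is present.
Col1a1: gctggAATAAAgcatgtggaaatgacccaa
Col1a2: ttttggttttccaaaagaaaatattgagta
Lum: ttgatagcaaAATAAAacaatgaagctggc
Igf2: tcgcaaacctAATAAAgcatttaaaatact
Slc13a4: taactgctcAATAAAtgtctctgatgacta
Tagln: agtaaaaatcaaatcttaagcATTAAAaaa
These windows lie at chr11:94953013-94953042 on the plus strand for Col1a1, chr6:4541515-4541544 on the plus strand for Col1a2 and chr10:97572674-97572703 on the plus strand for Lum. Those of Igf2, Slc13a4 and Tagln lie on the minus strand, at chr7:142650769-142650798, chr6:35267957-35267986 and chr9:45929619-45929648. Col1a1, Col3a1, Dcn, Lum, Igf2 and Slc13a4 hold AATAAA in this window, Tagln holds ATTAAA, and Col1a2, Slc6a13 and Acta2 hold neither hexamer on the transcript strand. Over 21832 annotated genes AATAAA was present in 51.4% of such windows, ATTAAA in 13.3% and either of them in 63.0%. An annotated end is not a measured cleavage site, and these letters describe the annotation only.

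Total counts per library were 13675945 to 24802272 in D50A and 16455364 to 20551906 in WT, of which the 10 genes together took 2324 to 6055 counts in D50A and 2757 to 4253 in WT. D50A 3, the shallowest library, stood apart from the other 7. Mitochondrially encoded genes took 11.9% of its counts and 4.08% to 5.14% of those elsewhere, its shorter transcripts were high and its longer ones low, and its AT-rich transcripts were higher than its GC-rich ones. In D50A 1 the order with GC content was the opposite. CPM below is the count per 1000000 reads of the library, with library sizes scaled by edgeR's TMM method. Cerebellar transcripts summed to 912 to 1210 CPM in D50A 2 to 5, while D50A 1 held 248 CPM and the WT libraries 251 to 265 CPM. Results are also given for D50A 2, 4 and 5 against WT, a choice made with earlier results of these data known. In that comparison every D50A library held more cerebellar transcript than every WT library. Genotype and cerebellar content cannot be told apart there, for the 10 genes or for any other. With all libraries included, only D50A 1 of the D50A libraries lacked that excess. Cstf2 itself ran from 65.8 to 129 CPM in D50A, with WT at 122 to 135 CPM, and a missense allele leaves the count uninformative about genotype.

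No difference between the genotypes passed the test for any of the 10 genes. edgeR's quasi-likelihood test with Benjamini-Hochberg adjustment called 0 of the 10 at an adjusted p under 0.05, where 0 of all 16810 tested genes passed (0.0%). At an unadjusted p under 0.05 the count was again 0 of 10, against 2.5% of all tested genes. All 10 passed the filter on low counts. DESeq2 called 0 of the 10 against 0.185% of the genes to which it gave an adjusted p, and 0 of the 10 passed by limma-voom with sample quality weights, against 3.08%. Between D50A 2, 4 and 5 and WT edgeR called 0 of the 10 against 6.42% of 16591 genes. For no gene of the 10 did every D50A library lie above every WT library, which held for 3.22% of tested genes, and for none did every D50A library lie below, which held for 4.24%. The median log2 fold change, D50A over WT, was 0.06 over the 10 genes and -0.01 over all tested genes, and 7 of the 10 were positive. In D50A 2, 4 and 5 the medians were -0.08 and 0.00. In bulk tissue, fewer cells of a type and less RNA per cell cannot be told apart.

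**Figure D1:**
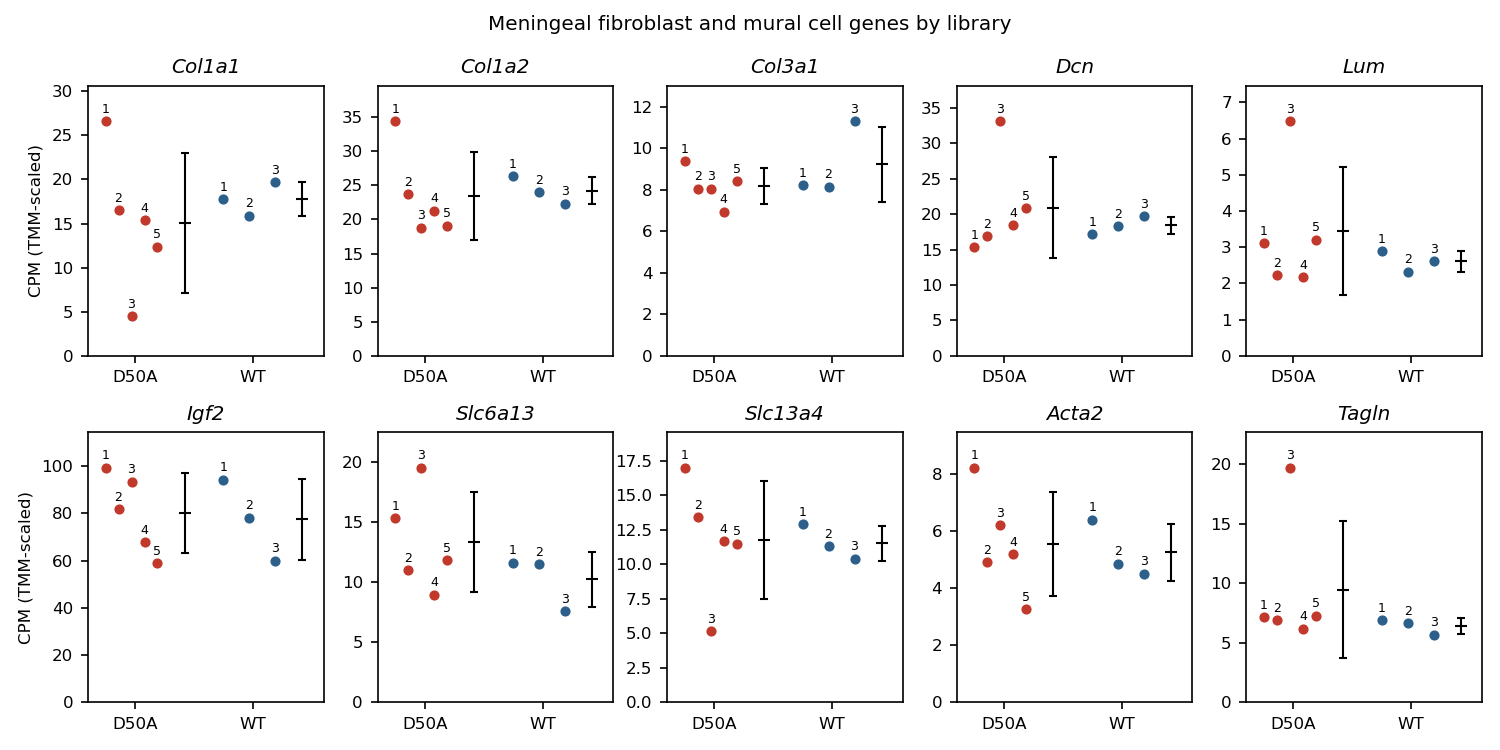
Level of each gene in CPM with TMM-scaled library sizes in each D50A (red) and WT (blue) library, numbered by replicate; black bars are the mean ± SD of the 5 D50A and 3 WT libraries, and each panel has its own axis from 0. D50A and WT points overlap for every gene, while D50A 3 is the highest library for Tagln, Lum, Dcn and Slc6a13 and the lowest for Col1a1, Col1a2 and Slc13a4.

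**Figure D2:**
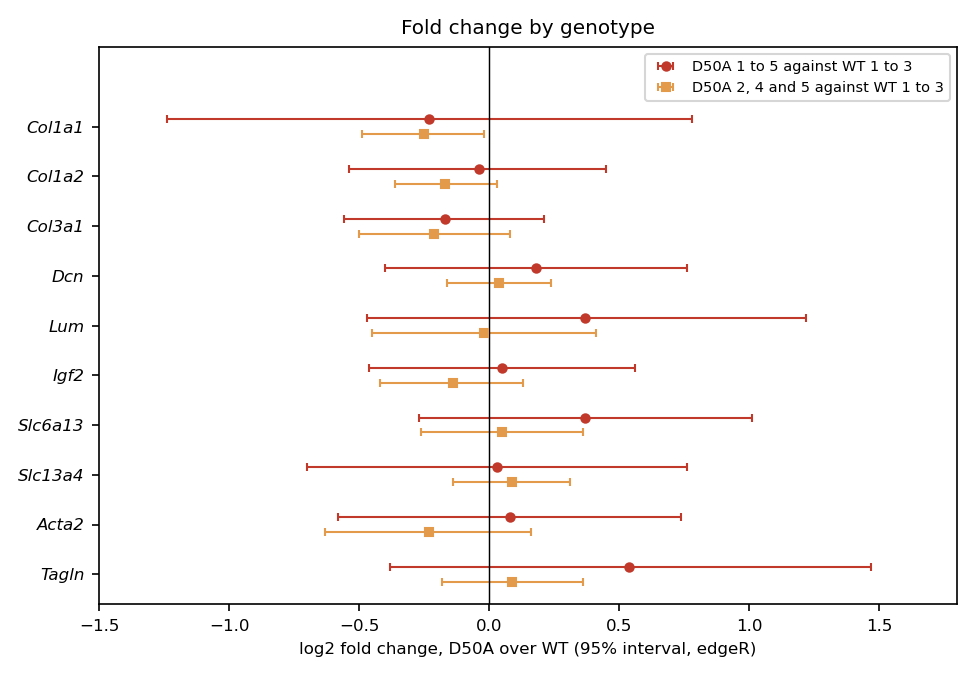
Log2 fold change of each gene, D50A over WT, with its 95% interval from edgeR's quasi-likelihood fit, for all 5 D50A libraries (red circles) and for D50A 2, 4 and 5 (orange squares) against the 3 WT libraries. All intervals include 0 except that of Col1a1 in D50A 2, 4 and 5, which runs from -0.49 to -0.02.

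Both type I collagen genes were highest in D50A 1 and lowest in D50A 3. Col1a1 (ENSMUSG00000001506, plus strand of chromosome 11, 94936224 to 94953042) encodes the alpha 1 chain of type I collagen, the main fibre of the dura and arachnoid. It had 26.6, 16.5, 4.53, 15.4 and 12.4 CPM in D50A 1 to 5, against 17.8, 15.9 and 19.7 CPM in WT 1 to 3. D50A 1 was the highest library and D50A 3 the lowest, and the WT libraries fell between them. The means were 15.1 ± 7.96 CPM in D50A (SD, n = 5) and 17.8 ± 1.88 CPM in WT (SD, n = 3). The log2 fold change was -0.23 (SE 0.44, 95% interval -1.24 to 0.78; edgeR adjusted p = 0.85). D50A 3 rested on 49 Col1a1 counts, for which an exact Poisson 95% interval of counting error alone is 36.3 to 64.8 counts. In D50A 2, 4 and 5 the log2 fold change was -0.25 (SE 0.11), and this was the only one of the 10 genes with an unadjusted p under 0.05 in that comparison, 0.038, though not after adjustment (edgeR adjusted p = 0.19).

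Col1a2 (ENSMUSG00000029661, plus strand of chromosome 6, 4504814 to 4541544) encodes the alpha 2 chain, which joins a pair of alpha 1 chains in the type I trimer. Its levels were 34.4, 23.7, 18.8, 21.3 and 19.1 CPM in D50A 1 to 5, against 26.3, 24.0 and 22.3 CPM in WT 1 to 3. D50A 1 was again highest, D50A 3 and D50A 5 were lowest, and D50A 2 lay inside the WT range. The means of 23.5 ± 6.42 CPM in D50A (SD, n = 5) and 24.2 ± 2.0 CPM in WT (SD, n = 3) gave a log2 fold change of -0.04 (SE 0.22; edgeR adjusted p = 0.94).

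Col3a1 (ENSMUSG00000026043, plus strand of chromosome 1, 45311538 to 45349706) encodes type III collagen, which co-assembles with type I in soft tissue and vessel walls. It varied least among the D50A libraries of the 3 collagens. The 5 D50A libraries held 9.38, 8.06, 8.05, 6.94 and 8.41 CPM and the WT libraries 8.23, 8.15 and 11.3 CPM. WT 3 was the highest of all 8 and D50A 4 the lowest. The log2 fold change was -0.17 (SE 0.17, 95% interval -0.56 to 0.21; edgeR adjusted p = 0.84), and without WT 3 it was -0.01.

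The proteoglycans Dcn and Lum were highest in D50A 3. Decorin and lumican are small leucine-rich proteoglycans that bind collagen fibrils and regulate their diameter, and their genes lie on the same stretch of chromosome 10, both on the plus strand, Dcn (ENSMUSG00000019929) at 97479609 to 97518143 and Lum (ENSMUSG00000036446) at 97565128 to 97572703. Dcn had 15.3, 16.9, 33.1, 18.4 and 20.8 CPM in D50A 1 to 5, against 17.2, 18.3 and 19.7 CPM in WT 1 to 3. D50A 1, the highest library for type I collagen, was the lowest for Dcn. Lum had 3.11, 2.23, 6.48, 2.17 and 3.21 CPM in D50A 1 to 5, against 2.89, 2.33 and 2.61 CPM in WT 1 to 3. D50A 3 was again alone at the top, and the other D50A libraries lay on both sides of the WT range. Lum was the least abundant of the 10 genes: its lowest library, D50A 4, held 41 counts, with an exact Poisson 95% interval of 29.4 to 55.6 counts. The log2 fold change was 0.18 for Dcn (SE 0.26; edgeR adjusted p = 0.84) and 0.37 for Lum (SE 0.37; edgeR adjusted p = 0.84). Without D50A 3 these values were -0.03 for Dcn and 0.06 for Lum.

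Igf2 (ENSMUSG00000048583, minus strand of chromosome 7, 142650766 to 142666816) encodes insulin-like growth factor 2, an imprinted growth factor that in the adult brain is made mainly by the meninges and the choroid plexus. It was the most abundant of the 10, with 99.3, 81.8, 93.4, 67.9 and 58.9 CPM in D50A 1 to 5, against 94.2, 78.1 and 60.0 CPM in WT 1 to 3. Both genotypes spanned nearly the same range. The means were 80.3 ± 16.9 CPM in D50A (SD, n = 5) and 77.4 ± 17.1 CPM in WT (SD, n = 3), and the log2 fold change was 0.05 (SE 0.22, 95% interval -0.46 to 0.56; edgeR adjusted p = 0.93). Igf2 overlaps the antisense gene Igf2os in its exons over 98 bases. Whether counting used strand is not stated, so reads of that stretch cannot be told apart, and Igf2os was counted 3 to 21 times in D50A libraries and 4 to 14 times in WT libraries. Gm49394, an overlapping annotation on the same strand, shares 3596 exonic bases with Igf2 and has no value here.

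Slc6a13 and Slc13a4 encode transporters of the leptomeningeal barrier. Slc6a13 (ENSMUSG00000030108, plus strand of chromosome 6, 121300227 to 121337733) carries GABA and taurine. It had 15.3, 11.0, 19.5, 8.95 and 11.8 CPM in D50A 1 to 5, against 11.6, 11.5 and 7.6 CPM in WT 1 to 3. D50A 3, D50A 1 and D50A 5 lay above all WT libraries, and D50A 2 and D50A 4 lay within the WT range. Slc13a4 (ENSMUSG00000029843, minus strand of chromosome 6, 35267957 to 35308131) carries sulfate with sodium. Its levels were 17.0, 13.4, 5.18, 11.7 and 11.5 CPM in D50A 1 to 5, against 12.9, 11.3 and 10.4 CPM in WT 1 to 3. D50A 3, the highest library for Slc6a13, was the lowest for Slc13a4, with 56 counts. The log2 fold change was 0.37 for Slc6a13 (SE 0.28; edgeR adjusted p = 0.84) and 0.03 for Slc13a4 (SE 0.32; edgeR adjusted p = 0.97). Without D50A 3 the values were 0.21 for Slc6a13 and 0.22 for Slc13a4.

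The contractile genes of mural cells also overlapped between the genotypes. Acta2 (ENSMUSG00000035783, minus strand of chromosome 19, 34241090 to 34255590) encodes smooth muscle alpha actin. It had 8.22, 4.92, 6.2, 5.19 and 3.26 CPM in D50A 1 to 5, against 6.4, 4.86 and 4.51 CPM in WT 1 to 3. D50A 1 was the highest library and D50A 5 the lowest. Tagln (ENSMUSG00000032085, minus strand of chromosome 9, 45929619 to 45936058) encodes transgelin, an actin-binding protein of smooth muscle. Tagln had 7.16, 6.9, 19.7, 6.2 and 7.27 CPM in D50A 1 to 5, against 6.93, 6.63 and 5.7 CPM in WT 1 to 3. Apart from D50A 3 its libraries were the closest together of the 10 genes, with the highest of the other 7 libraries at 1.27 times the lowest. The log2 fold change was 0.08 for Acta2 (SE 0.29; edgeR adjusted p = 0.91) and 0.54 for Tagln (SE 0.4; edgeR adjusted p = 0.84), and without D50A 3 that of Tagln was 0.11. Tagln shares 108 exonic bases with Pcsk7 on the opposite strand. Pcsk7 as a whole was at 15.4 CPM in D50A 3 and at 26.3 to 31.3 CPM in the other 7 libraries. The part of reads from the shared bases in the Tagln counts was not tested. The antisense gene Gm48529, annotated over 1241 exonic bases of Tagln, has no value here.

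For 7 of the 10 genes the highest and the lowest of all 8 libraries were both D50A. The exceptions were Col3a1, highest in WT 3 and lowest in D50A 4, and Slc6a13 and Tagln, highest in D50A 3 and lowest in WT 3. D50A 1 was the highest library for Col1a1, Col1a2, Igf2, Slc13a4 and Acta2. In D50A 1, 9 of the 10 genes lay above their WT mean, with a median log2 ratio to that mean of 0.43, while 50.4% of all tested genes lay above with a median of 0.00. D50A 3 was the highest library for Dcn, Lum, Slc6a13 and Tagln and the lowest for Col1a1, Col1a2 and Slc13a4, with log2 ratios from -1.97 for Col1a1 to 1.62 for Tagln. In D50A 4, 1 of the 10 genes lay above the WT mean, with a median log2 ratio of -0.18, while 45.7% of all tested genes lay above with a median of -0.02. Among the 7 libraries other than D50A 3, the highest level was 2.52 times the lowest for Acta2, 2.15 times for Col1a1 and 2.01 times for Slc6a13, against 1.35 times for Dcn.

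In D50A 3 the genes with short transcripts were high and most of those with long transcripts were low. The 5 genes with principal transcripts of 1595 to 2448 nt, namely Tagln, Dcn, Acta2, Slc6a13 and Lum, had log2 ratios to the WT mean of 1.62, 0.85, 0.24, 0.93 and 1.31 in that library. The 3 collagens, at 5348 to 5930 nt, had ratios of -0.37 for Col1a2, -0.20 for Col3a1 and -1.97 for Col1a1. Igf2 at 3970 nt and Slc13a4 at 3427 nt fell on either side, at 0.27 and -1.16. Over all genes the median log2 ratio in D50A 3 was 1.08 for transcripts up to 2000 nt, -0.24 between 3000 and 4000 nt and -0.93 between 5000 and 7000 nt. Col1a1, Slc13a4 and Dcn lay below the median of their length class there, and the other 7 genes lay above it. Spearman's rho of the ratio with length in D50A 3 was -0.76 over the 10 genes and -0.58 over 13105 genes, given as a description of 1 library. GC content moved with D50A 3 as well: the median log2 ratio was 0.63 for genes of up to 42% GC and -0.90 for genes over 58%, and Spearman's rho with GC content was -0.44 over the 10 genes and -0.28 over all 13105. The part of transcript length, GC content and the mitochondrial share in these values was not tested.

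In D50A 1 the order with length was weaker: the length-class medians of all genes ran from 0.04 for transcripts up to 2000 nt to -0.16 over 7000 nt, and Spearman's rho was -0.22 over 13105 genes and 0.21 over the 10. With GC content rho was 0.65 over all these genes and 0.39 over the 10. The median log2 ratio in D50A 1 was -0.33 for genes of up to 42% GC and 0.15 for genes over 58%. Dcn, at 42.4% GC, had the lowest ratio of the 10 genes there, -0.26, and Col1a1, at 58.9%, had 0.58. Lum at 41.9% GC had 0.26 and Acta2 at 49.6% had 0.64, both above the medians of their classes. The part of GC content and length in the levels of D50A 1 was not tested.

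**Figure D3:**
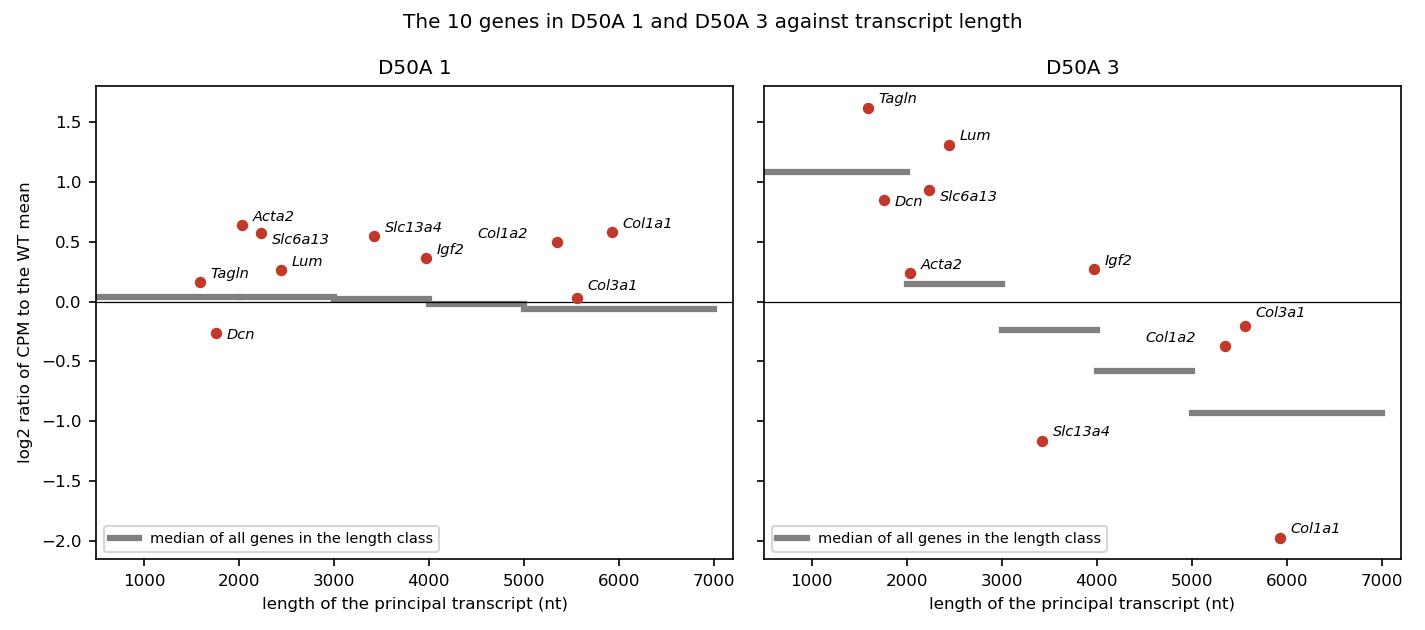
Log2 ratio of CPM to the WT mean for each of the 10 genes (red points) in D50A 1 and D50A 3, against the length of the principal transcript in nucleotides; grey bars are the medians of all genes in each length class up to 7000 nt. In D50A 3 the grey bars step down from 1.08 to -0.93 and the points fall from Tagln at 1.62 to Col1a1 at -1.97, while in D50A 1 the bars step from 0.04 to -0.06 and 9 of the 10 points lie above 0.

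Count ratios between pairs of these genes within a library need no scaling between libraries; the pairs were chosen with the values known. Col1a1 over Col1a2, the chains of 1 trimer, was 0.773, 0.697, 0.241, 0.72 and 0.648 in D50A 1 to 5, against 0.676, 0.661 and 0.88 in WT 1 to 3. Igf2 over Col1a2 was 2.89, 3.45, 4.98, 3.18 and 3.09 in D50A 1 to 5, against 3.58, 3.25 and 2.69 in WT 1 to 3. These ratios were steadier than most of the levels: outside D50A 3 the highest was 1.36 times the lowest for Col1a1 over Col1a2 and 1.33 times for Igf2 over Col1a2, compared with 2.15 times for Col1a1 itself and 1.69 times for Igf2 itself. Slc13a4 over Slc6a13 was 0.265 in D50A 3, below a range of 0.979 to 1.37 elsewhere. Tagln over Acta2 was 3.18 in D50A 3, against 0.872 to 2.23 in the others, with D50A 5 at the upper and D50A 1 at the lower end. Dcn over Col1a2 was less steady, at 0.446, 0.712, 1.76, 0.861 and 1.09 in D50A 1 to 5, against 0.654, 0.762 and 0.88 in WT 1 to 3. In 2 pairs D50A 3 lay inside the range of the other 7 libraries: Lum over Dcn was 0.196 there and 0.118 to 0.203 elsewhere, and Col3a1 over Col1a2 was 0.429 there and 0.273 to 0.505 elsewhere. D50A and WT overlapped in every one of these ratios.

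**Figure D4:**
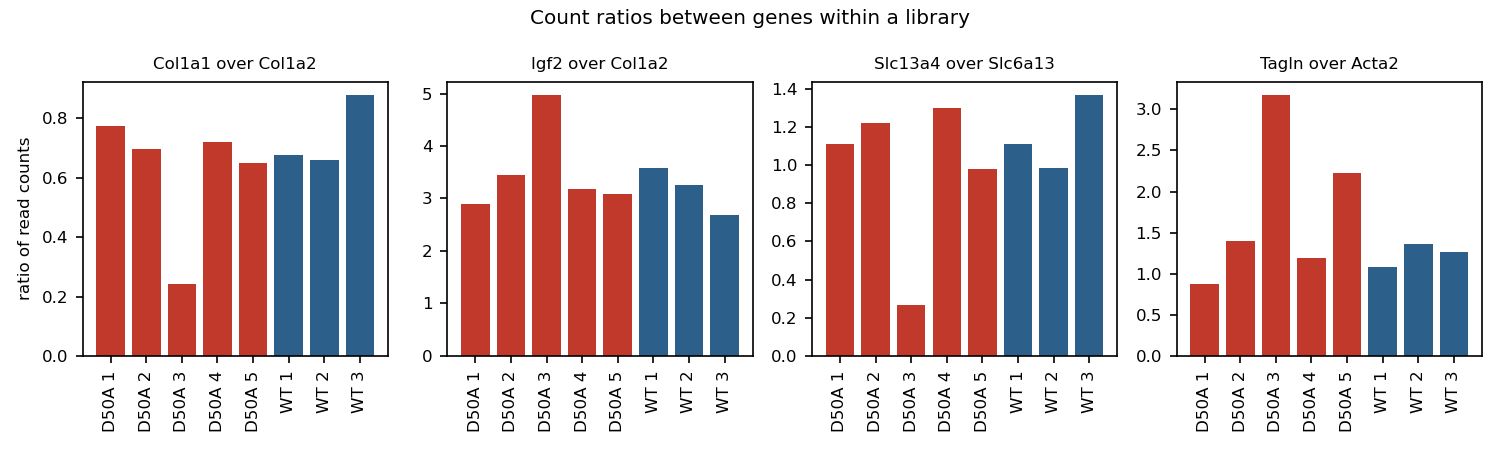
Ratio of read counts between pairs of genes in each library, D50A in red and WT in blue, with bars from 0. D50A 3 is lowest for Col1a1 over Col1a2 at 0.241 and for Slc13a4 over Slc6a13 at 0.265, and highest for Igf2 over Col1a2 at 4.98 and for Tagln over Acta2 at 3.18.

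Per kilobase of annotated exon, Igf2 stood far above the other 9 genes, at 14.0 ± 2.96 CPM per kb in D50A (SD, n = 5) and 13.5 ± 2.99 CPM per kb in WT (SD, n = 3). In WT the next levels were 3.53 ± 0.789 CPM per kb for Slc6a13, 3.23 ± 0.322 for Tagln and 3.15 ± 0.209 for Dcn, and these neighbours did not differ beyond their spread. Col1a1 at 2.71 ± 0.287, Slc13a4 at 2.55 ± 0.284 and Acta2 at 2.39 ± 0.457 CPM per kb in WT followed, without a difference beyond their spread. They did not form a separate group, as the WT libraries of Col1a1, at 2.42 to 3.0 CPM per kb, overlapped those of Slc6a13, Tagln and Dcn. Col1a2 at 1.95 ± 0.161 CPM per kb overlapped Acta2, and Lum at 1.07 ± 0.114 and Col3a1 at 0.939 ± 0.182 came last without a difference beyond their spread. This order below Igf2 depends on the length used. Over 8 libraries Col1a2 averaged 1.91 CPM per kb of all annotated exons and 4.44 CPM per kb of its longest transcript. Col3a1 averaged 0.872 CPM per kb of exon, below Lum at 1.28, and 1.54 CPM per kb of its longest transcript, above Lum, which stayed at 1.28. Per kb of the principal transcript Dcn was at 10.5 ± 0.694 CPM in WT (SD, n = 3), against 4.59 ± 1.03 for Slc6a13 and 4.03 ± 0.401 for Tagln.

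Genes that work with the 10 were followed in lists, from each of which the 3 with the smallest unadjusted p are named where they are described. A list name does not give the cell source, as bulk counts do not say which cell type the reads came from. Of 57 tested fibroblast genes other than the 10, edgeR called 0 at an adjusted p under 0.05 in all 8 libraries. At an unadjusted p under 0.05 it was 1, against 2.5% of all tested genes. DESeq2 called 0, against 0.185% of the genes given an adjusted p, and limma-voom 1, Spp1, against 3.08% of all tested genes. The median log2 fold change of these fibroblast genes was -0.02. Their summed level was 591 to 703 CPM in D50A, and WT held 605 to 668 CPM. Spp1, which encodes the secreted matrix protein osteopontin, had 19.8, 19.5, 31.3, 15.3 and 16.3 CPM in D50A 1 to 5, against 11.7, 12.5 and 10.1 CPM in WT 1 to 3. All D50A libraries lay above all WT libraries, but the log2 fold change of 0.83 (SE 0.25) did not pass (edgeR unadjusted p = 0.0098, adjusted p = 0.84). Thbs2, which encodes the matricellular thrombospondin 2, was at 7.86 ± 0.9 CPM in D50A (SD, n = 5) and 9.72 ± 0.569 CPM in WT (SD, n = 3), and Bmp5, a bone morphogenetic protein gene, at 2.44 ± 0.829 CPM in D50A and 1.48 ± 0.211 CPM in WT. With D50A 1 and D50A 3 left out, 5 of 55 tested fibroblast genes passed edgeR's adjusted threshold, where 6.42% of all genes did. Spp1 was higher by a log2 fold change of 0.58, Bmp5 by 0.9 and Aldh1a1, which encodes a retinaldehyde dehydrogenase, by 0.33 (edgeR adjusted p = 0.0047, 0.019 and 0.021). Col6a1, of the beaded type VI collagen, was lower at -0.4 and Col5a1, of the minor fibrillar type V collagen, at -0.32 (edgeR adjusted p = 0.0014 and 0.012).

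Of 28 tested genes of collagen processing, edgeR called 0 in all 8 libraries, with 0 at an unadjusted p under 0.05. DESeq2 called 0, against 0.185% of the genes given an adjusted p, and limma-voom 1, Bmp1, against 3.08% of all tested genes. The median log2 fold change of these 28 genes was -0.14. Their summed level was 1180, 1150, 1190, 1190 and 1170 CPM in D50A 1 to 5, against 1120, 1090 and 1050 CPM in WT 1 to 3. These sums did not overlap between the groups, but Sparc alone made up 541 to 767 CPM of them in D50A and 479 to 517 CPM in WT. Only 9 of the 28 genes had a positive log2 fold change, so the separation of the sums does not describe the list as a whole. Sparc, which encodes a collagen-binding matrix protein, was the most abundant of them, with 547, 541, 767, 590 and 590 CPM in D50A 1 to 5, against 506, 517 and 479 CPM in WT 1 to 3. Here too all D50A libraries were above WT, as for 3.22% of all tested genes, but its log2 fold change of 0.28 did not pass (edgeR adjusted p = 0.84). Serpinh1, the collagen chaperone HSP47, was at 27.9 ± 9.94 CPM in D50A and 21.2 ± 0.404 CPM in WT. Lepre1, a prolyl 3-hydroxylase gene, was at 9.48 ± 3.2 CPM in D50A and 12.9 ± 1.04 CPM in WT. Sparc at a log2 fold change of 0.21, Tll1 at 0.73 and Bmp1 at 0.43 passed as higher in D50A 2, 4 and 5 against WT (edgeR adjusted p = 0.035, 0.021 and 0.0011). They were 3 of 28 tested genes of the list, where 6.42% of all genes passed. Tll1 and Bmp1 encode proteinases that trim procollagens.

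Of 34 tested mural cell genes other than Acta2 and Tagln, edgeR called 0 in all 8 libraries, with 0 at an unadjusted p under 0.05. DESeq2 called 0, against 0.185% of the genes given an adjusted p, and limma-voom 1, Mylk, against 3.08% of all tested genes. The median log2 fold change of these 34 genes was -0.11. Their summed level was 609, 543, 818, 542 and 531 CPM in D50A 1 to 5, against 588, 593 and 604 CPM in WT 1 to 3, so D50A 3 had the highest sum. Tpm1, a tropomyosin gene, at 373 CPM and Rgs5, a pericyte regulator of G protein signalling, at 177 CPM made up most of it. Of the 34 genes, 17 were highest of all 8 libraries in D50A 3 and 13 were lowest there, Notch3, Pdgfrb and Myh11 among them, while over all tested genes 40.0% were highest and 44.4% lowest in D50A 3. Tpm2, a smooth muscle tropomyosin gene, was at 10.4 ± 4.42 CPM in D50A (SD, n = 5) and 6.57 ± 1.27 CPM in WT (SD, n = 3). Cnn2, a calponin gene, was at 7.47 ± 1.48 CPM in D50A and 5.65 ± 0.934 CPM in WT, and Sncg, which encodes gamma-synuclein, at 11.2 ± 7.46 CPM in D50A and 6.45 ± 0.709 CPM in WT. Without D50A 1 and D50A 3, Cspg4, the NG2 proteoglycan gene, was lower at a log2 fold change of -0.49 and Mylk, the myosin light chain kinase gene, at -0.54 (edgeR adjusted p = 0.02 and 0.0084). This was 2 of 34 tested genes of the list, where 6.42% of all genes passed. Bulk counts do not say which cell type the Cspg4 and Mylk reads came from.

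Of 24 tested regulators in the serum response factor and TGF-beta pathways, which drive contractile and matrix genes, edgeR called 0 in all 8 libraries. At an unadjusted p under 0.05 there were 2, against 2.5% of all tested genes. DESeq2 called 1, Ltbp2, against 0.185% of the genes given an adjusted p, and limma-voom 2, Ltbp2 and Pdgfb, against 3.08% of all tested genes. The median log2 fold change of these 24 genes was -0.23. Ltbp2, which encodes a matrix protein related to the latent TGF-beta binding proteins, had 1.87, 6.79, 1.48, 9.91 and 9.74 CPM in D50A 1 to 5, against 1.2, 0.81 and 0.95 CPM in WT 1 to 3. D50A 2, 4 and 5 were far above the other 5 libraries, and D50A 1 and D50A 3 were only slightly above WT. Its log2 fold change was 2.59 (SE 0.72, edgeR adjusted p = 0.84) in all 8 libraries and 3.16 in D50A 2, 4 and 5 against WT (edgeR adjusted p = 6.8e-08). Tgfb2 was at 14.0 ± 1.18 CPM in D50A (SD, n = 5) and 17.9 ± 2.09 CPM in WT (SD, n = 3), and Acvrl1, an endothelial receptor gene of the family, at 10.2 ± 2.45 CPM in D50A and 12.9 ± 0.371 CPM in WT. Acvrl1, Pdgfb, which encodes the growth factor that recruits pericytes, Mkl2 and Mkl1 passed as lower in D50A 2, 4 and 5 against WT, at log2 fold changes of -0.35, -0.33, -0.35 and -0.36 (edgeR adjusted p = 0.035, 0.021, 0.011 and 0.014). With Ltbp2, 1 of the 24 passed there as higher and 4 as lower, where 6.42% of all genes passed. Mkl1 and Mkl2 encode the myocardin-related coactivators of serum response factor, and Srf itself ran from 26.9 to 58.1 CPM in D50A, with WT at 58.9 to 62.7 CPM. For Srf and Tgfb2 all D50A libraries lay below all WT libraries, as for 4.24% of all tested genes. Their log2 fold changes of -0.32 and -0.36 did not pass (edgeR adjusted p = 0.84 for each).

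Of 19 tested genes, from the IGF axis and from imprinted genes both near Igf2 and elsewhere, edgeR called 0 in all 8 libraries. DESeq2 and limma-voom called 0 each. At an unadjusted p under 0.05 edgeR gave 2, against 2.5% of all tested genes. The median log2 fold change was -0.08. H19, the maternally expressed non-coding RNA that shares its enhancers with Igf2, had 1.52, 0.71, 5.0, 1.43 and 1.24 CPM in D50A 1 to 5, against 0.385, 0.658 and 0.594 CPM in WT 1 to 3. All D50A libraries lay above all WT libraries, on 14 to 54 counts in D50A and 8 to 13 counts in WT, while Igf2 itself overlapped. The log2 fold change of H19 was 1.79 (SE 0.66; edgeR unadjusted p = 0.026, adjusted p = 0.84), and in D50A 2, 4 and 5 it was 1.06 (edgeR adjusted p = 0.089). Igf2bp2, an RNA-binding protein gene, was at 1.56 ± 0.379 CPM in D50A (SD, n = 5) and 2.29 ± 0.105 CPM in WT (SD, n = 3), with all D50A libraries below all WT libraries. Cdkn1c, an imprinted cell cycle inhibitor gene of the same chromosome region, was at 13.3 ± 5.68 CPM in D50A and 8.11 ± 2.25 CPM in WT. Dlk1, an imprinted gene for a transmembrane protein, was lower at -0.38 and Igfbp4, for an IGF binding protein, at -0.27 in D50A 2, 4 and 5 against WT (edgeR adjusted p = 0.023 and 0.026). That was 2 of 18 genes of the list tested there, where 6.42% of all genes passed.

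The list calls, in all 8 libraries as well as in D50A 2, 4 and 5, stand beside the cerebellar difference. In all 8 libraries edgeR called 0 of the 12 tested cerebellum genes, DESeq2 8 and limma-voom 10. In D50A 2, 4 and 5 against WT all 12 passed as higher by edgeR, with a median log2 fold change of 2.59. Gabra6, a granule cell receptor gene, had 1049 to 2092 counts in D50A 2 to 5, 0 counts in D50A 1 and 0 to 6 counts in WT. The part of cerebellar content in these list calls was not tested.

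**Figure D5:**
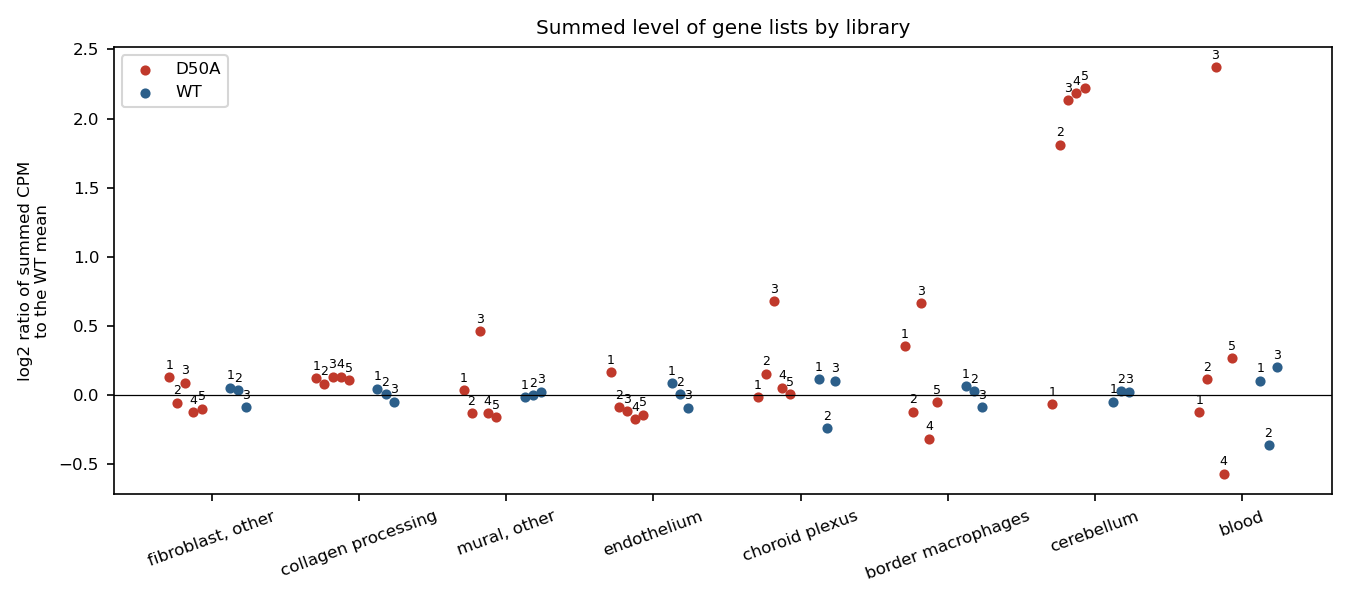
Log2 ratio of the summed CPM of a gene list to its WT mean, in each D50A (red) and WT (blue) library, numbered by replicate. The fibroblast list overlaps between the genotypes, the cerebellum list is high in D50A 2 to 5 and the blood list is high in D50A 3. The collagen processing sum, of which Sparc is the largest part, is slightly higher in every D50A library than in every WT library.

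Defining markers of both cell classes were present in every library. Pdgfra, a receptor gene of fibroblasts that oligodendrocyte precursors also express, ran from 34.9 to 62.7 CPM in D50A, with WT at 71.7 to 73.7 CPM. All its D50A libraries thus lay below all WT libraries, as for 4.24% of all tested genes. Rgs5, a pericyte marker, ran from 83.5 to 177 CPM in D50A, with WT at 85.2 to 92.0 CPM. Pdgfrb, the mural cell receptor gene, ran from 3.98 to 28.2 CPM in D50A, with WT at 23.4 to 29.3 CPM, and Myh11, the smooth muscle myosin gene, from 0.463 to 7.75 CPM in D50A, with WT at 4.34 to 6.74 CPM. D50A 3 held the lowest Pdgfra, Pdgfrb and Myh11, the last on 5 counts, and the highest Rgs5.

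Markers of tissues that could come along with the meninges were also measured, and their part in the levels of the 10 genes was not tested. Bone and cartilage genes summed to 7.22 to 22.1 CPM in D50A, lowest in D50A 3 and highest in D50A 1, and WT held 14.7 to 18.4 CPM. The osteoblast genes Bglap and Ibsp held 0 to 6 counts per library in D50A and 0 to 5 counts in WT. Sp7 of the same list ran from 0.648 to 6.58 CPM in D50A, with WT at 2.13 to 3.08 CPM. Col2a1 ran from 0.37 to 3.82 CPM in D50A, with WT at 1.67 to 2.93 CPM. Dmp1 ran from 2.59 to 5.17 CPM in D50A, with WT at 3.74 to 5.0 CPM. Sp7 and Col2a1 were highest in D50A 1 and Dmp1 in D50A 2, and each was lowest in D50A 3. Skeletal muscle genes summed to 8.37 to 13.6 CPM in D50A, and WT held 9.77 to 11.0 CPM. Ckm, the muscle creatine kinase gene, was at 3 to 7 counts in D50A and 1 to 3 counts in WT. Acta1 was at 82 to 197 counts in D50A and 128 to 130 counts in WT. Choroid plexus genes, of an epithelium that neighbours a fibroblast stroma, summed to 545 to 881 CPM in D50A, and WT held 466 to 595 CPM, highest in D50A 3. Ttr, the transthyretin gene, made up 807 of the 881 CPM in D50A 3, where 6 of the 12 genes were at their lowest and 5 at their highest of the 8 libraries. Endothelial genes summed to 372 to 470 CPM in D50A, and WT held 394 to 445 CPM, and genes of border macrophages to 12.3 to 24.3 CPM in D50A, and WT held 14.4 to 16.0 CPM. Blood genes reached 2360 CPM in D50A 3, and ran from 307 to 549 CPM in the other D50A libraries and from 355 to 524 CPM in WT. Pituitary genes summed to 4.0 to 14.9 CPM in D50A, and WT held 4.51 to 854 CPM, the highest in WT 2. No gene of the 10 was highest or lowest in WT 2, and the same held for WT 1 and D50A 2. Olfactory genes summed to 14.0 to 52.4 CPM in D50A, and WT held 13.9 to 29.7 CPM.

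Across the 8 libraries the fibroblast genes did not move as 1 block. The mean z score of the 8 fibroblast genes had a Pearson r from -0.15 for Dcn to 0.756 for Igf2 with its own constituents. Among 15214 other genes the highest r with that mean was 0.965 for Nop56, a nucleolar protein gene, followed by 0.959 for Nono, an RNA-binding protein gene, and 0.953 for Gm14066. Emcn, which encodes the endothelial sialomucin endomucin, came next at 0.944, and the others were Cd1d1, Marcksl1, Rab3b and Shisa3 at 0.92 to 0.933. Acta2 and Tagln each had an r of 0.794 with the mean of both. Each gene is part of the mean it is compared with, which raises r. For a pair the values are always equal, so they do not show that Acta2 and Tagln moved together. The genes most like that mean were Fsd1 at 0.993, Cdk10 at 0.98, Sh3glb2 at 0.978 and Tspan17 at 0.977, then Dbnl, Mdh2, Pfn1 and Fastk at 0.967 to 0.974. All points share the same 8 libraries and their differences in length, GC content and depth, so these values describe the libraries.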

How the data were processed

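The values are gene-level read counts of poly(A)-selected RNA from 8 total brains, deposited by the authors without any normalization. Per the submitters' processing notes the build was mm10 and the tools were DESeq2 2, HTSeq 0.6.1, STAR 2.5 and CASAVA 1.8, in no stated order. No source used here gives the strand setting or the release of the annotation. Genotypes came from the labels. The 10 genes, the gene lists, the ratio pairs and the libraries left out together were chosen with earlier results of these data known.

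Counts were tested over the whole table in R 4.3.3 with edgeR 4.0.16 (filterByExpr, TMM, quasi-likelihood test, Benjamini-Hochberg, threshold 0.05, no covariate). Log2 CPM used a prior count of 2. Genes named are all 10, the 3 with the smallest p in each pathway list, and the 8 most alike by Pearson r. Genes called in D50A 2, 4 and 5, tissue markers and Cstf2 are named with their values known. The alternatives tried were DESeq2 1.42.0, which gave 5815 genes no adjusted p, limma-voom 3.58.1 with sample quality weights, other scalings and filters, a robust fit and leaving libraries out. The tests were tested on simulated data. Positions, lengths, GC content and transcript ends came from GENCODE M21 (mm10), to which 25484 of 25815 gene identifiers matched. Length and GC medians were taken where mean log2 CPM exceeded 1. Intervals of single counts cover counting error only. Proteins and promoters of the 10 genes were not used here.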

Additional observations from a re-analysis of the deposited data

Results flagged for a closer look

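In the 5 D50A libraries, 1 library lay far from the nearest of the others for 4 of 17 quantities looked at, the levels of the 10 genes and 7 count ratios between them. The gap to the nearest library over the whole range was above the 95% critical value of 0.71 for 5 samples, which chance passes in about 1 of 20 groups; the quantities share libraries and genes. All 4 were in D50A 3. Tagln was at 19.7 CPM there, against 6.2 to 7.27 CPM in the other D50A libraries (gap over range 0.921). Lum was at 6.48 CPM, against 2.17 to 3.21 CPM in the other D50A libraries (0.758). The Col1a1 over Col1a2 count ratio was 0.241 (0.764) and the Igf2 over Col1a2 count ratio was 4.98 (0.733). D50A 3 also held 11.9% mitochondrially encoded counts, and the part of that in these values was not tested.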

How the results depend on the processing

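No alternative called any of the 10 genes, over 19 settings for each gene. The count of all tested genes called was 0 by edgeR in all 8 libraries. It was 37 by DESeq2, 517 by limma-voom with sample quality weights, 1065 in D50A 2, 4 and 5 against WT, 744 in D50A 2, 4 and 5 against WT 1 and 3, and 0 to 26 with 1 library left out, 26 without D50A 1. Signs of uncalled fold changes turned for several genes. By limma-voom the log2 fold change was -0.03 for Lum, -0.14 for Igf2 and -0.2 for Acta2. Its sample weights were 0.0272 for D50A 3 and 0.3546 for D50A 1, and 1.8295 to 2.55 for the other libraries. That fit therefore rests mainly on D50A 2, 4 and 5 and WT, and is not independent of the comparison of those libraries. In D50A 2, 4 and 5 against WT it was -0.02 for Lum, -0.14 for Igf2 and -0.23 for Acta2, and against WT 1 and 3 it was -0.1, -0.14 and -0.29 for the same genes. The cause was not tested. With each library left out in turn, values ran from -0.52 to 0.01 for Col1a1, -0.2 to 0.04 for Col1a2, -0.26 to -0.01 for Col3a1, -0.03 to 0.3 for Dcn, 0.06 to 0.5 for Lum, -0.11 to 0.21 for Igf2, 0.19 to 0.48 for Slc6a13, -0.13 to 0.22 for Slc13a4, -0.09 to 0.24 for Acta2 and 0.11 to 0.66 for Tagln. Other scalings moved the median log2 fold change of all genes to between -0.045 and 0.03 and turned no sign among the 10.

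The intervals leave room for changes of the size of the library spread, so that the absence of a call does not show that the genotypes were alike. Lum, Acta2, Tagln and Col3a1 held at most 241 counts in any library. No paired analysis was possible because the labels give no shared replicate numbers and libraries are numbered only as they were deposited.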
